A study of Mus musculus with 35 samples.

Results

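Bile acid synthesis and transport genes were followed in mouse liver as a set of 34 named genes, out of 55413 genes with a row in the deposited count table. The genes were listed by symbol and matched to Ensembl identifiers through GENCODE vM21, and all 34 had a row and passed the filter on low counts, which left 15297 genes. The mice were C57Bl6, and the sources used here do not state their sex. In the first 2 groups the mice received diethylnitrosamine (DEN), a carcinogen that hepatocytes activate, at 25 mg/kg on day 14 after birth, then an antisense oligonucleotide (ASO) at 50 mg/kg by intraperitoneal injection 2 times a week from day 133, and were killed on day 260. One of these groups received an ASO against Smyd3, a lysine methyltransferase (Smyd3-ASO, n = 6), and the other a control ASO (n = 6). A group called P133 received the same DEN injection and no ASO, and was killed on day 133 (n = 4). Untreated mice received neither DEN nor ASO and were killed on day 260 (n = 5). The labels call all DEN samples liver tumours of the hepatocellular carcinoma type and the untreated samples normal liver, and RNA came from pieces of liver. Control ASO against untreated therefore cannot tell DEN apart from the ASO injections, and P133 against untreated also differs in age. Smyd3-ASO against untreated likewise differs in both DEN and ASO. Control ASO against P133 differs in both age and ASO injections, which cannot be told apart.

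Bile acids are made from cholesterol in hepatocytes. The classic route begins with Cyp7a1 and the alternative route with Cyp27a1 and Cyp7b1. Further enzymes rework the sterol rings, peroxisomes shorten the side chain, and the acids are then joined to taurine or glycine. Transporters of the sinusoidal membrane take returning bile acids up from the blood, and those of the canalicular membrane move bile acids, phospholipid and cholesterol into bile. The nuclear receptor FXR, encoded by Nr1h4, senses bile acids and lowers their synthesis through SHP, encoded by Nr0b2, and the intestinal hormone FGF15 does so through the receptor Fgfr4 with its partner Klb.

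Promoter windows from RefSeq (GRCm38.p6), each running from 250 bases before to 50 bases after an annotated start, were available for 26 of the 34 genes. Those shown are the windows that held a match to a searched motif among genes lower in control-ASO than in untreated livers, since FXR and HNF4A, a hepatocyte transcription factor, are known regulators of several of these genes. Capitals mark the match, and all 4 are on the minus strand of the genome and written in the direction of transcription. The Abcb11 window (chr2:69342567-69342866) and the Slc51b window (chr9:65422724-65423023) each held the FXR inverted repeat (GGTCA and TGACC parted by 1 base of any kind) with 1 changed base. The Cyp8b1 window (chr9:121916256-121916555) and the Cyp2c70 window (chr19:40187237-40187536) held the HNF4A motif CAAAGTCCA.
Abcb11: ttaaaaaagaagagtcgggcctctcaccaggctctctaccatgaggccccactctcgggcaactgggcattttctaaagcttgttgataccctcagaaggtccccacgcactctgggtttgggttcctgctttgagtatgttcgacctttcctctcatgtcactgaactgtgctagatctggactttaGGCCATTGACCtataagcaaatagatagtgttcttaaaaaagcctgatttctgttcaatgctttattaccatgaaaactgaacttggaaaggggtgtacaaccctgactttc
Slc51b: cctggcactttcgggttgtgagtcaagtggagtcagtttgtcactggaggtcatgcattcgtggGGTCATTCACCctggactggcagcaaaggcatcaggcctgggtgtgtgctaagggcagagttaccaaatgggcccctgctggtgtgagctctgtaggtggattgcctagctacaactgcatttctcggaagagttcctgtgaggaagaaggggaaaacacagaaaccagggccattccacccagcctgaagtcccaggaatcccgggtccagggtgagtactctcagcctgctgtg
Cyp8b1: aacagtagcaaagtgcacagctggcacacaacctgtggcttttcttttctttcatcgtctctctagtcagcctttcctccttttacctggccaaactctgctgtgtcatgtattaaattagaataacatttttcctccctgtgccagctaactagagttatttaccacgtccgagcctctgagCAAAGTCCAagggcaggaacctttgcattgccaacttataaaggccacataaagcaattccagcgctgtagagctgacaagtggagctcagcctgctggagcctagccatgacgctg
Cyp2c70: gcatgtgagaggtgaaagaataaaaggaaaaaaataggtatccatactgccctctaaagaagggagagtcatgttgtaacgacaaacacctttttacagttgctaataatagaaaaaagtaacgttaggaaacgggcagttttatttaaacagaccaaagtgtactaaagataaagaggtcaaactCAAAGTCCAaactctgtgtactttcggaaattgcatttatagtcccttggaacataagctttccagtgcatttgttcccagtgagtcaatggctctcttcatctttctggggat
Both strands were searched, and matches of different motifs did not overlap. Some genes had more than 1 window, and the 26 genes had 32. Among 32851 windows of this length, 0.758% held the FXR repeat with at most 1 changed base. So did 3 of the 32, from 3 genes, the third being Slco1b2. The exact repeat was in 0.0396% of all windows and in 0 of the 32. The HNF4A motif was in 0.475% of all windows and in 2 of the 32, from 2 genes. CAAGGTCA, a site of the receptor LRH-1, was in 1.56% of windows, the HNF1 motif (GTTAAT and ATTAAC parted by 1 base) in 0.00913%, and both were in 0 of the 32. These matches describe the letters of the windows and are not measured binding.

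The libraries were made with a 3' end kit, so a count stands for the end of a transcript, and levels are given as CPM, that is counts relative to the scaled library size, with TMM scaling, with no correction for length. Totals per mouse ran from 6358080 to 20258619 counts under Smyd3-ASO, 6789715 to 13805881 under control ASO, 4556484 to 6447397 at P133 and 10186780 to 13116012 in untreated mice. Smyd3 itself was at 0 to 0.757 CPM under Smyd3-ASO and 3.11 to 4.63 CPM under control ASO (log2 -3.65, SE 0.47, adjusted p = 1.48e-04). Untreated livers gave 24.9 to 32.2% of their counts to 10 genes, against 9.46 to 15.7% under Smyd3-ASO, and their TMM factors were 0.568 to 0.784, against 0.983 to 1.42 in all other mice. With library totals in place of TMM the median log2 change of all genes was 0.90, 0.96 and 0.59 in the comparisons of control ASO, Smyd3-ASO and P133 with untreated mice, against 0.06, 0.06 and 0.00184 with TMM. It was 0.28 in control ASO over P133 and 0.04 in Smyd3-ASO over control ASO, against 0.03 and 0.01 with TMM. Changes are therefore given relative to the bulk of genes.

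Changes were called at an adjusted p of 0.05 over all 15297 genes. In Smyd3-ASO against control ASO, 3 of the 34 genes were higher and 6 lower, which is 26.5% of them, next to 26.1% of all genes tested (13.3% higher and 12.9% lower). That share is close to the share over all genes. In control ASO against untreated, 4 were higher and 19 lower, or 67.6%, next to 45.9% of all genes (23.7% higher and 22.2% lower). In Smyd3-ASO against untreated, 2 were higher and 15 lower, or 50%, next to 47.6% of all genes (24.4% higher and 23.2% lower). In P133 against untreated, 2 were higher and 9 lower, or 32.4%, next to 31.6% (15.1% higher and 16.6% lower). In control ASO against P133, 4 were higher and 12 lower, or 47.1%, next to 27% (14.4% higher and 12.6% lower). Lower calls thus outnumbered higher calls among these genes in all 5 comparisons with TMM scaling, while over all genes the directions were nearly even. With library totals the counts of higher and lower genes were instead 4 and 3 in Smyd3-ASO over control ASO, 11 and 5 in control ASO over untreated, 13 and 8 in Smyd3-ASO over untreated, 9 and 2 in P133 over untreated and 7 and 10 in control ASO over P133. Over all 15297 genes those counts were 1932 and 1590, 10036 and 687, 9522 and 893, 6471 and 821, and 3855 and 985 in the same order. Measured against the median gene under that scaling, all 9, 23, 17, 11 and 16 genes called in those comparisons stayed on their side. That step largely puts back the centring on the bulk of genes that TMM makes, so it is not a separate check. The count of higher genes was 1 in Smyd3-ASO over control ASO without control-ASO mice 2, 4 or 6, and in control ASO over P133 it was 1 without P133 mouse 3 and 2 without P133 mouse 4 or control-ASO mouse 6.

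**Figure D1:**
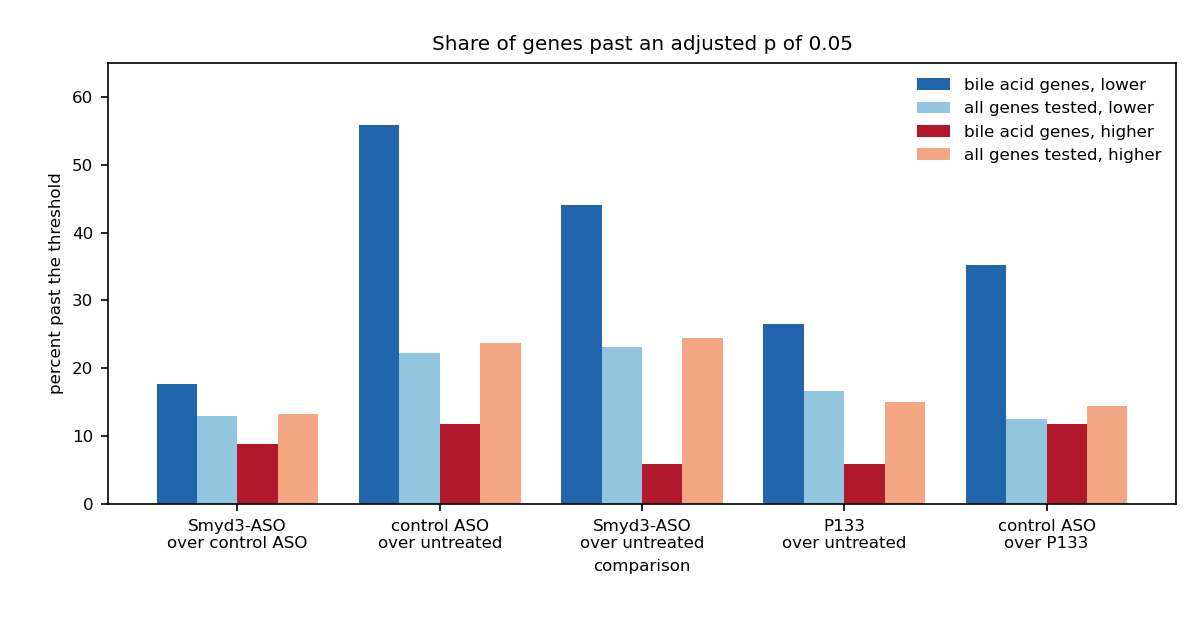
Bars give the percent of the 34 bile acid genes and of all 15297 genes tested that passed an adjusted p of 0.05, for each comparison and direction. The tallest bar is that of bile acid genes lower in control ASO over untreated, at 55.9%, against 22.2% of all genes.

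The median log2 change of the 34 genes was -0.15 for Smyd3-ASO over control ASO, -0.75 for control ASO over untreated, -0.60 for Smyd3-ASO over untreated, -0.33 for P133 over untreated and -0.38 for control ASO over P133. The medians over all genes were 0.01, 0.06, 0.06, 0.00184 and 0.03 in the same order. Groups did not overlap for 3, 12, 13, 8 and 10 of the 34 genes (8.82, 35.3, 38.2, 23.5 and 29.4%), where 11.1, 27.6, 28.4, 27.1 and 21.3% of all genes did not. The comparisons share mice, since control-ASO and untreated mice each enter 3 of them. In bulk liver, fewer hepatocytes and less of these RNAs per hepatocyte cannot be told apart.

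**Figure D2:**
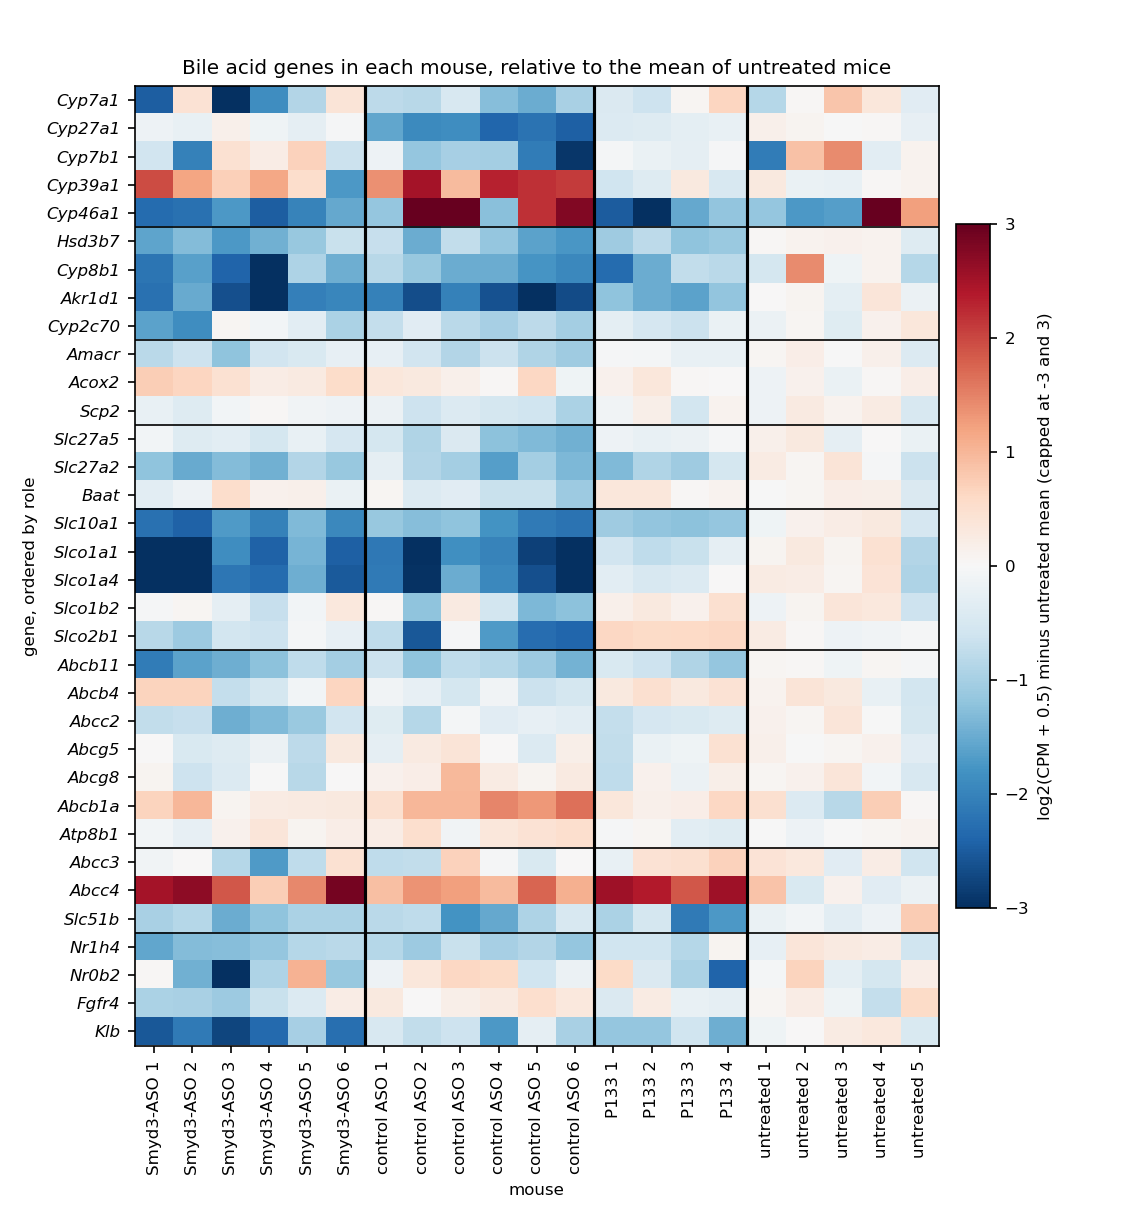
Colours give log2(CPM + 0.5) of each gene in each mouse minus the mean of the untreated mice, capped at -3 and 3, with genes ordered by role and roles split by lines. Cyp27a1 is low in the 6 control-ASO mice alone among the DEN groups, while Akr1d1, Slc10a1, Slco1a1 and Slco1a4 are low in both ASO groups.

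Of the 5 first sterol hydroxylases, Cyp27a1 was higher and Cyp46a1 lower under Smyd3-ASO than under control ASO. Cyp27a1 (mm10 chromosome 1, 74713574 to 74737892, plus strand) encodes the mitochondrial enzyme that starts the alternative route and also acts on the side chain. Its level in Smyd3-ASO mice was 185 CPM at the lowest, 200 at the median and 246 at the highest, and in control-ASO mice 40.3, 53.1 and 74.9 CPM. In P133 mice it was 167, 171, 181 and 189 CPM, and in untreated mice 245, 236, 219, 226 and 188 CPM. Every control-ASO mouse lay below every mouse of the other 3 groups. Smyd3-ASO over control ASO was 3.80-fold higher (log2 1.92, SE 0.16, adjusted p = 7.99e-06), and control ASO over untreated was 4.12-fold lower (log2 -2.04, SE 0.16, adjusted p = 4.70e-07). These comparisons share the control-ASO mice. Control ASO over P133 was lower as well (log2 -1.71, SE 0.16, adjusted p = 1.21e-05). Smyd3-ASO over untreated was at log2 -0.13 (SE 0.13, adjusted p = 0.426) and P133 over untreated at -0.33 (SE 0.13, adjusted p = 0.0572), and neither passed. Without P133 mouse 4 and untreated mouse 5, left out for their Dbp levels as described below for Cyp7a1, the P133 value passed (log2 -0.42, adjusted p = 0.0199).

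Cyp7a1 (chromosome 4, 6265612 to 6275633, minus strand), the rate-limiting enzyme of the classic route, varied more among Smyd3-ASO mice than within the other groups. They had 11.6, 89.5, 2.32, 17.8, 35.7 and 87.6 CPM, against 38.0, 37.0, 47.4, 26.9, 23.2 and 33.5 CPM in control-ASO mice. P133 mice had 49.0, 43.0, 68.9 and 104 CPM, and untreated mice had 36.5, 67.6, 118, 84.8 and 51.9 CPM. The highest Smyd3-ASO mouse stood 38.5-fold above the lowest, against 2.05-fold in the control-ASO group, 2.42-fold at P133 and 3.24-fold in untreated mice. The comparison of Smyd3-ASO with control ASO did not pass (log2 0.23, SE 0.65, adjusted p = 0.815). Control ASO was lower than untreated (log2 -1.06, SE 0.27, adjusted p = 0.00677) and lower than P133 (log2 -0.95, SE 0.25, adjusted p = 0.0172), with overlap of the mice in both. The fall against untreated did not pass in 1 fit of all 4 groups (adjusted p = 0.164), nor did the one against P133 (adjusted p = 0.299). The fall against P133 also ended without P133 mouse 4 (log2 -0.64, adjusted p = 0.0508) and without the filter (adjusted p = 0.0542).

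Cyp7a1 is known to follow the liver clock, so 3 clock genes are given beside it. Dbp, an output gene of the clock, stood at 5.30 to 33.3 CPM under Smyd3-ASO. In control-ASO mice 1 and 2 it stood at 9.46 and 11.6 CPM, and in the other control-ASO mice at 93.5 to 107 CPM. At P133 it stood at 1.52 to 8.83 CPM, and in untreated mice at 92 to 119 CPM except for mouse 5 at 13.0 CPM. Arntl, an activator of the clock, averaged 5.95 CPM under Smyd3-ASO, 4.62 under control ASO, 13.9 at P133 and 0.597 in untreated mice, and the repressor Nr1d1 averaged 11.3, 21.7, 1.35 and 28.5 CPM. Cyp7a1 in control-ASO mice 1 and 2 lay inside the range of the other control-ASO mice, and so did untreated mouse 5 in its group. P133 mouse 4, with the highest Dbp of its group, had 104 CPM of Cyp7a1, against 43.0 to 68.9 CPM in the others. Of 17 clock genes, 0 were higher and 3 lower in Smyd3-ASO over control ASO, 2 and 2 in control ASO over untreated, 1 and 6 in Smyd3-ASO over untreated, 5 and 4 in P133 over untreated and 4 and 4 in control ASO over P133. Of all genes tested, 26.1, 45.9, 47.6, 31.6 and 27% were called in either direction in the same order. The part of the clock in the Cyp7a1 values was not tested. Without control-ASO mice 1 and 2, P133 mouse 4 and untreated mouse 5, whose Dbp lay over 4-fold from the group median, Cyp7a1 in control ASO over untreated was at log2 -1.24 (adjusted p = 0.03), and the change against P133 did not pass (log2 -0.71, adjusted p = 0.0697). The numbers of members higher and lower without those mice were 3 and 6 in Smyd3-ASO over control ASO, 3 and 19 in control ASO over untreated, 2 and 16 in Smyd3-ASO over untreated, 2 and 11 in P133 over untreated and 2 and 9 in control ASO over P133. No Smyd3-ASO mouse was left out, and the control-ASO mice kept, at 93.5 to 107 CPM of Dbp, lay above all Smyd3-ASO mice. This setting therefore does not match the ASO groups for Dbp and cannot show what the clock does to their comparison.

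Cyp46a1 (chromosome 12, 108334381 to 108362234, plus strand), a cholesterol hydroxylase best known from neurons, was near its detection limit in Smyd3-ASO livers. The 6 Smyd3-ASO mice had 5 to 13 counts (0.221 to 0.884 CPM), against 1.29, 47.1, 50.5, 1.18, 17.8 and 26.7 CPM in control-ASO mice. P133 mice had 0 to 8 counts (0 to 1.26 CPM). Untreated mice had 1.29, 0.71, 0.778, 38.8 and 8.81 CPM. The control-ASO and untreated groups each held both low mice, at 1.29 CPM or less, and mice at 8.81 CPM or more. Smyd3-ASO over control ASO was lower without overlap (log2 -5.71, SE 0.99, adjusted p = 0.00187), and it missed the threshold with limma voom (log2 -4.58, adjusted p = 0.0901). Smyd3-ASO over untreated was lower too (log2 -4.45, SE 1.09, adjusted p = 0.00685), at -2.63 (adjusted p = 0.0105) without untreated mouse 4, and this call ended with voom (adjusted p = 0.0597). Control ASO over P133 was higher (log2 5.29, SE 1.60, adjusted p = 0.0413), which held neither with voom (adjusted p = 0.52) nor without any 1 of the 4 P133 mice or of control-ASO mice 2, 3, 5 and 6 (adjusted p 0.0623 to 0.0988), nor without the filter (adjusted p = 0.0674) or the mice of shifted Dbp (adjusted p = 0.082). Control ASO over untreated did not pass (log2 1.27, SE 1.26, adjusted p = 0.443), and neither did P133 over untreated (log2 -4.01, SE 1.79, adjusted p = 0.134), which DESeq2 called (log2 -4.08, adjusted p = 0.0183).

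Cyp39a1, an oxysterol hydroxylase that acts on the product of Cyp46a1, was higher in control-ASO than in untreated and P133 livers. It had 0.505 to 12.3 CPM under Smyd3-ASO (median 5.96) and 5.91 to 18.2 CPM under control ASO (median 14.1). P133 mice had 1.68 to 3.54 CPM (8 to 16 counts) and untreated mice 2.33 to 3.54 CPM (15 to 33 counts), below every control-ASO mouse. Control ASO over untreated was at log2 2.15 (SE 0.28, adjusted p = 3.39e-05) and control ASO over P133 at 2.49 (SE 0.36, adjusted p = 3.21e-04). Smyd3-ASO over control ASO (log2 -1.07, SE 0.46, adjusted p = 0.102) and Smyd3-ASO over untreated (log2 1.06, SE 0.49, adjusted p = 0.0923) did not pass, and the lowest Smyd3-ASO mouse had 4 counts. In 1 fit of all groups both passed (adjusted p = 0.038 and 0.0422), as did the first without Smyd3-ASO mouse 1 (log2 -1.39, adjusted p = 0.044) and the second without Smyd3-ASO mouse 6 (log2 1.28, adjusted p = 0.00261). Cyp7b1, the second enzyme of the alternative route and a male-biased gene in mouse liver, passed in 0 of the 5 comparisons by edgeR. It ran from 42.9 to 285 CPM under Smyd3-ASO, 23.1 to 161 under control ASO, 146 to 174 at P133 and 41.3 to 478 in untreated mice. Its unadjusted p was under 0.05 in 3, namely Smyd3-ASO over control ASO (log2 1.07) and control ASO over untreated (-1.56) and over P133 (-1.01), and DESeq2 called it lower in the last 2. Without control-ASO mouse 1 those 2 also passed by edgeR (log2 -1.89, adjusted p = 0.0416, and -1.33, adjusted p = 0.0274), and the change over untreated passed without untreated mouse 1 (log2 -1.83, adjusted p = 0.0179) and in 1 fit of all groups (adjusted p = 0.0267).

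**Figure D3:**
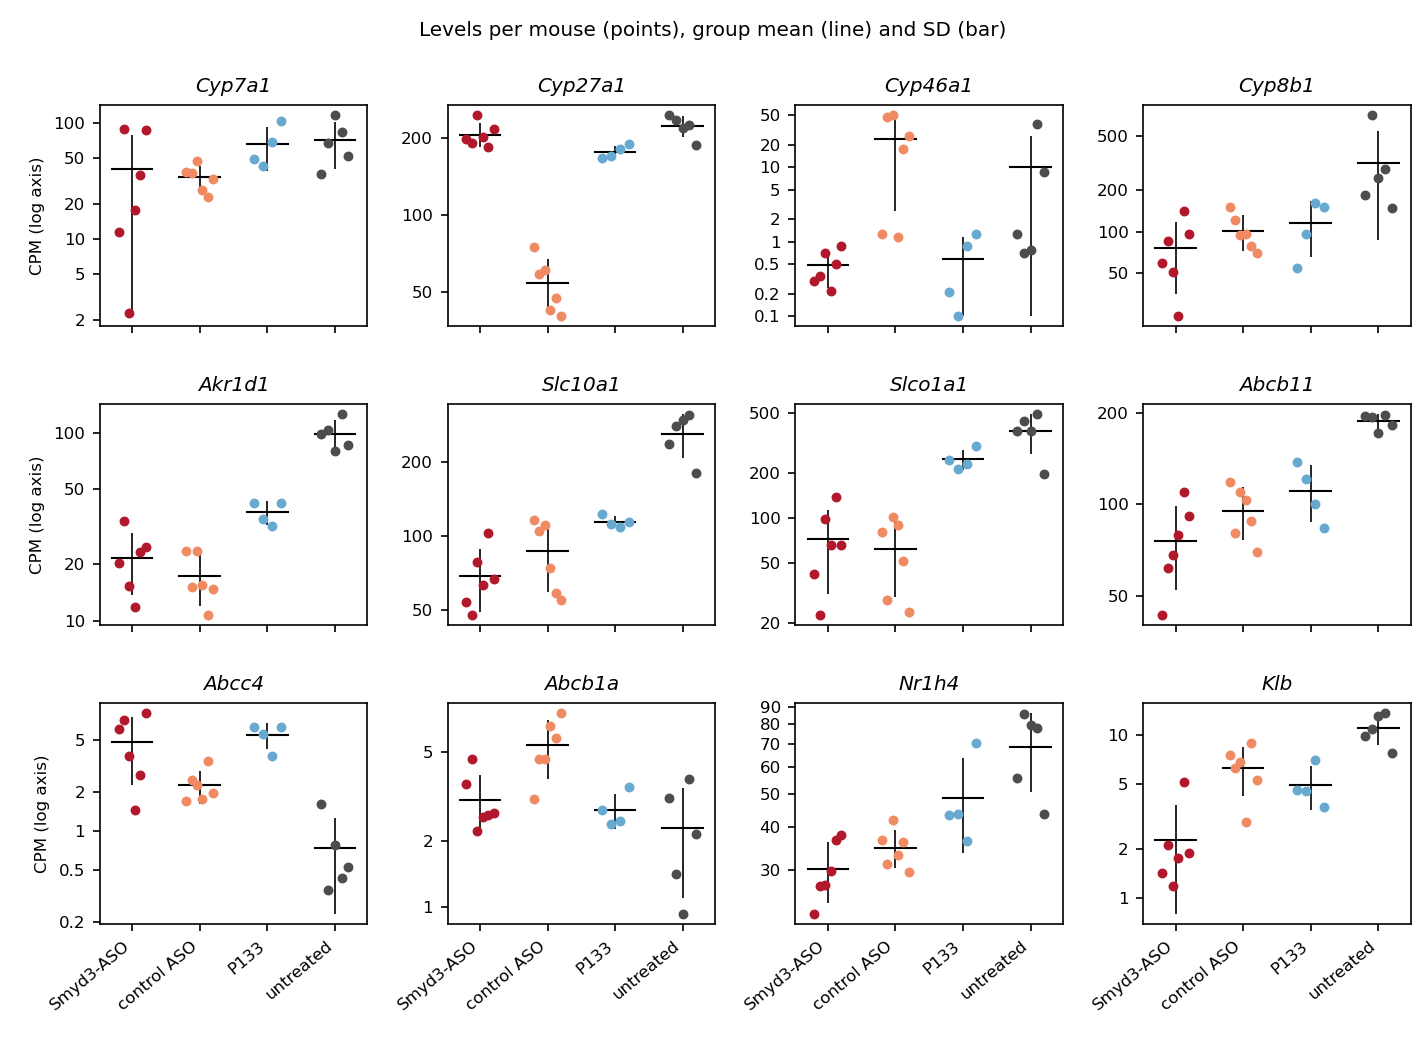
Points are mice, lines group means and bars SD, in CPM on log axes that differ between genes, with values under 0.1 CPM drawn at 0.1. Cyp27a1 separates control ASO (40.3 to 74.9 CPM) from the other 3 groups, whereas Akr1d1, Slc10a1 and Abcb11 separate untreated mice from all DEN groups.

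All 4 genes of ring modification, 12-alpha hydroxylation and muricholate formation were lower in control-ASO than in untreated livers. Akr1d1 (chromosome 6, 37530173 to 37568815, plus strand), the reductase that sets the bend between the first rings, had 11.9 CPM at the lowest, 21.7 at the median and 34 at the highest under Smyd3-ASO, and 10.7, 15.3 and 23.6 CPM under control ASO. P133 mice had 42.3, 34.7, 31.9 and 42.4 CPM, and untreated mice 98.3, 104, 80.1, 126 and 86.0 CPM. Untreated mice lay above all DEN mice, and P133 mice above all control-ASO mice. Control ASO over untreated was 5.74-fold lower (log2 -2.52, SE 0.20, adjusted p = 4.70e-07), Smyd3-ASO over untreated 4.67-fold lower (log2 -2.22, SE 0.23, adjusted p = 8.82e-06) and P133 over untreated 2.61-fold lower (log2 -1.38, SE 0.15, adjusted p = 1.21e-05). Control ASO over P133 was lower as well (log2 -1.13, SE 0.20, adjusted p = 0.00113). Between the ASO groups it did not pass (log2 0.32, SE 0.25, adjusted p = 0.362).

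Cyp8b1, the 12-alpha hydroxylase that directs synthesis to cholic acid and whose window is printed above, had 23.9 to 142 CPM under Smyd3-ASO (median 72.0) and 69.3 to 151 CPM under control ASO (median 95.1). P133 mice had 54.0, 95.7, 161 and 152 CPM and untreated mice 185, 715, 246, 286 and 148 CPM. It was lower in Smyd3-ASO than in untreated mice without overlap (log2 -2.08, SE 0.49, adjusted p = 0.00459) and lower in control-ASO than in untreated mice (log2 -1.64, SE 0.38, adjusted p = 0.00472). Untreated mouse 2 stood far above the other untreated mice, and without it the control-ASO value was -1.09 (adjusted p = 0.00221). P133 over untreated did not pass (log2 -1.44, SE 0.56, adjusted p = 0.0906), and passed with DESeq2 (adjusted p = 0.0305) and in 1 fit of all groups (adjusted p = 0.031). Hsd3b7, a dehydrogenase of the sterol ring, was at 121 ± 34.5, 129 ± 41.5, 143 ± 18.6 and 294 ± 40.4 CPM (SD) in Smyd3-ASO, control-ASO, P133 and untreated mice. All untreated mice lay above all DEN mice, with log2 changes over untreated of -1.30 (adjusted p = 1.15e-04), -1.19 (adjusted p = 2.68e-04) and -1.04 (adjusted p = 1.04e-04) in Smyd3-ASO, control-ASO and P133 mice. All 251 windows of 50 bases in the last 300 bases of Hsd3b7 are also in Gm49388, a gene that overlaps it, so the counts of this pair cannot be separated. Cyp2c70, which makes muricholic acids in mice, was at 711 ± 355, 644 ± 116, 826 ± 116 and 1106 ± 202 CPM (SD) in the same order. It was lower in control ASO over untreated (log2 -0.78, SE 0.17, adjusted p = 0.00206). It did not pass in Smyd3-ASO over untreated (log2 -0.66, SE 0.33, adjusted p = 0.114), where Smyd3-ASO mice split into 298, 356 and 566 CPM and 882, 1036 and 1132 CPM, and it passed without Smyd3-ASO mouse 3 (log2 -0.84, adjusted p = 0.0462) and in 1 fit of all groups (adjusted p = 0.0484). P133 over untreated (log2 -0.42, adjusted p = 0.0765) passed without untreated mouse 3 (log2 -0.49, adjusted p = 0.0446) and without the filter (adjusted p = 0.0304), and control ASO over P133 (log2 -0.36, adjusted p = 0.108) without control-ASO mouse 2 (log2 -0.46, adjusted p = 0.0329). In Smyd3-ASO over control ASO 0 of these 4 genes passed by edgeR, with log2 changes from -0.43 to 0.32; 0 had an unadjusted p under 0.05, and 0 passed with DESeq2 or voom.

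Of the 3 peroxisomal side chain genes, Amacr and Scp2 were lower in control-ASO than in untreated livers and Acox2 was higher in Smyd3-ASO than in untreated livers. Amacr, the racemase that readies the side chain, was at 67.3 ± 14.7, 64.1 ± 13.8, 95.0 ± 6.60 and 105 ± 16.2 CPM (SD) in Smyd3-ASO, control-ASO, P133 and untreated mice. It was lower in control ASO over untreated (log2 -0.71, adjusted p = 0.00197), in Smyd3-ASO over untreated (-0.67, adjusted p = 0.00633) and in control ASO over P133 (-0.56, adjusted p = 0.0122). Acox2, the branched-chain oxidase, had 147 to 210 CPM under Smyd3-ASO and 108 to 144 CPM in untreated mice, with no overlap (log2 0.47, SE 0.14, adjusted p = 0.0145), and 114 to 194 CPM under control ASO. Scp2, whose long form is the thiolase of this pathway, averaged 1748 ± 168, 1337 ± 235, 1844 ± 383 and 1968 ± 409 CPM (SD) in the same order of groups. Its fall in control ASO over untreated (log2 -0.56, SE 0.19, adjusted p = 0.0269) ended without control-ASO mice 2, 5 or 6 or untreated mice 2, 3 or 4 (adjusted p 0.0502 to 0.0708), and 79.3% of the 50-base windows at its 3' end are also in the pseudogene Scp2-ps2. Smyd3-ASO over control ASO (log2 0.38, adjusted p = 0.0781) and control ASO over P133 (log2 -0.46, adjusted p = 0.0699) did not pass by edgeR. DESeq2 called both (adjusted p = 0.0226 and 0.0396), and they passed without control-ASO mouse 1 (adjusted p = 0.043 and 0.0343), the second also without P133 mouse 3 (adjusted p = 0.0317).

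The 3 conjugation genes were all lower in control-ASO than in untreated livers, and Slc27a5 was higher under Smyd3-ASO than under control ASO. Slc27a5, the bile acid CoA ligase, had 296 CPM at the lowest, 333 at the median and 404 at the highest under Smyd3-ASO, and 157, 205 and 315 CPM under control ASO. P133 mice had 385, 364, 374 and 415 CPM, and untreated mice 476, 524, 350, 430 and 368 CPM. All control-ASO mice lay below all P133 and untreated mice, while control-ASO mouse 3 alone reached into the range of the Smyd3-ASO mice. Smyd3-ASO over control ASO was at log2 0.59 (SE 0.18, adjusted p = 0.0311), which ended without Smyd3-ASO mice 1 or 5 or control-ASO mice 2, 4, 5 or 6 (adjusted p 0.0514 to 0.0731). Control ASO over untreated was at -0.94 (SE 0.20, adjusted p = 0.00153) and control ASO over P133 at -0.77 (SE 0.19, adjusted p = 0.00842). Smyd3-ASO over untreated did not pass (log2 -0.37, SE 0.15, adjusted p = 0.0631), though it did with DESeq2 (adjusted p = 0.0449) and without Smyd3-ASO mouse 1 or untreated mice 3 or 5 (adjusted p 0.0457 to 0.0464). Baat, the enzyme that joins bile acids to taurine or glycine, was at 105 ± 23.6, 72.7 ± 19.5, 117 ± 13.1 and 102 ± 16.7 CPM (SD) in Smyd3-ASO, control-ASO, P133 and untreated mice. It was lower in control ASO over P133 (log2 -0.68, adjusted p = 0.0113) and over untreated (-0.49, adjusted p = 0.0362). The last call ended without control-ASO mice 4, 5 or 6 or untreated mice 1, 2, 3 or 4 (adjusted p 0.0559 to 0.082), and the value was -0.78 (adjusted p = 0.00177) without the mice of shifted Dbp. Its change between the ASO groups missed the threshold (0.52, adjusted p = 0.0563). That change passed with DESeq2 (adjusted p = 0.0399), in 1 fit of all groups (adjusted p = 0.0218), without Smyd3-ASO mice 1 or 6 or control-ASO mouse 1 (adjusted p 0.0182 to 0.049) and without the mice of shifted Dbp (0.72, adjusted p = 0.0246). Slc27a2, an acyl-CoA synthetase that also activates bile acid precursors, was at 115 ± 19.1, 139 ± 47.3, 142 ± 34.2 and 279 ± 68.6 CPM (SD). It was lower over untreated in Smyd3-ASO (log2 -1.30, adjusted p = 9.92e-05), control-ASO (-1.01, adjusted p = 0.00266) and P133 mice (-0.97, adjusted p = 0.00274).

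**Figure D4:**
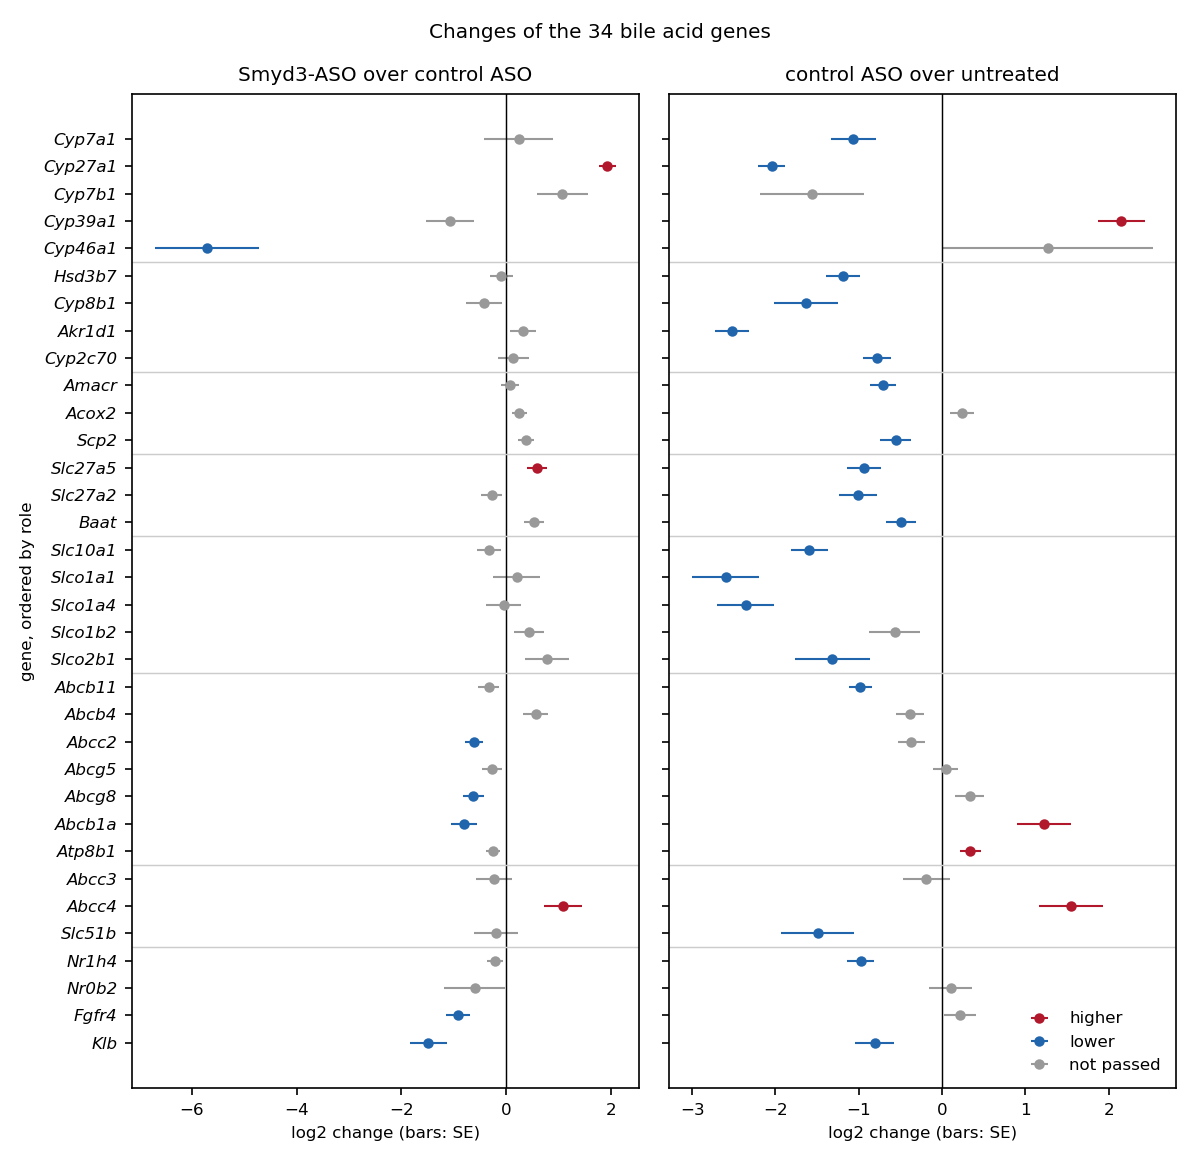
Points are log2 changes of the 34 genes with SE bars, in Smyd3-ASO over control ASO on the left and control ASO over untreated on the right, on axes of different range. Colour marks genes higher, lower or not passed at an adjusted p of 0.05, with 9 coloured on the left and 23 on the right.

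Of the 5 uptake genes, 4 were lower in control-ASO and in Smyd3-ASO than in untreated livers, and between the ASO groups 0 passed by edgeR, by DESeq2 or by voom, or had an unadjusted p under 0.05. Slco2b1 alone of them passed on leaving out 1 mouse, as given with its levels. Slc10a1 (chromosome 12, 80953183 to 80968705, minus strand), which encodes the sodium-dependent bile acid carrier NTCP, had 47.6 CPM at the lowest, 64.9 at the median and 102 at the highest under Smyd3-ASO, and 54.7, 89.6 and 116 CPM under control ASO. P133 mice had 123, 112, 109 and 114 CPM, and untreated mice 236, 280, 297, 312 and 181 CPM. Untreated mice lay above all DEN mice. Over untreated, Smyd3-ASO was 3.85-fold lower (log2 -1.95, SE 0.21, adjusted p = 1.15e-05), control ASO 3.02-fold lower (log2 -1.59, SE 0.22, adjusted p = 5.29e-05) and P133 2.28-fold lower (log2 -1.19, SE 0.16, adjusted p = 7.02e-05). Between the ASO groups the change was -0.34 (SE 0.23, adjusted p = 0.284).

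Slco1a1 and Slco1a4, neighbouring genes for organic anion carriers on chromosome 6, were far lower in both ASO groups than at P133 or in untreated livers. Slco1a1 had 22.6 to 138 CPM under Smyd3-ASO (median 66.4), 23.7 to 101 under control ASO (median 66.5), 213 to 301 at P133 and 196 to 496 in untreated mice. It was 6.05-fold lower in control ASO over untreated (log2 -2.60, SE 0.40, adjusted p = 3.37e-04) and 3.93-fold lower in control ASO over P133 (log2 -1.97, SE 0.40, adjusted p = 0.00629). Smyd3-ASO over untreated was at -2.41 (SE 0.41, adjusted p = 4.91e-04). Slco1a4 had 29.1 to 94.3, 25.4 to 93.1, 187 to 263 and 137 to 347 CPM in Smyd3-ASO, control-ASO, P133 and untreated mice, with log2 changes of -2.42 (adjusted p = 5.93e-05) in Smyd3-ASO over untreated and -2.36 (adjusted p = 1.76e-04) in control ASO over untreated, and was 3.99-fold lower in control ASO over P133 (adjusted p = 0.00147). For both genes every ASO mouse lay below every P133 and untreated mouse. Both genes were lowest in control-ASO mice 2 and 6 and Smyd3-ASO mice 1 and 2. The count of Slco1a4 per count of Slco1a1 was 0.589 to 1.40 under Smyd3-ASO, 0.741 to 1.15 under control ASO, 0.852 to 0.88 at P133 and 0.684 to 0.813 in untreated mice. The fall of Slco1a1 in P133 over untreated (log2 -0.62, SE 0.22, adjusted p = 0.0463) ended with RLE scaling (adjusted p = 0.0516), with voom (adjusted p = 0.0783), in 1 fit of all groups (adjusted p = 0.319) and without any 1 of P133 mice 1, 2 and 3 or untreated mice 1, 2, 3 and 4 (adjusted p 0.0746 to 0.125). Slco1a4 did not pass there (log2 -0.35, adjusted p = 0.246), but was called lower without untreated mouse 5 (log2 -0.53, adjusted p = 0.00637) and without the mice of shifted Dbp (log2 -0.64, adjusted p = 0.00226).

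Slco2b1, another organic anion carrier, was higher at P133 and lower in both ASO groups than in untreated livers. It had 72.2 to 149 CPM under Smyd3-ASO, 232 to 241 at P133 and 140 to 183 in untreated mice, while control-ASO mice had 91.6, 26.1, 150, 47.5, 31.3 and 29.2 CPM. P133 over untreated was at log2 0.61 (SE 0.12, adjusted p = 0.00157) and did not pass in 1 fit of all groups (adjusted p = 0.249). Smyd3-ASO over untreated was at -0.55 (SE 0.18, adjusted p = 0.0224), which ended without untreated mouse 1 (adjusted p = 0.0599), without the filter (adjusted p = 0.053) and in 1 fit of all groups (adjusted p = 0.207). Control ASO over P133 was at -1.92 (SE 0.51, adjusted p = 0.024), which ended without P133 mouse 4 (adjusted p = 0.0517), without the filter (adjusted p = 0.0504) and without the mice of shifted Dbp (adjusted p = 0.106). Control ASO over untreated was at -1.32 (SE 0.45, adjusted p = 0.0353), which ended without control-ASO mice 2, 4, 5 or 6 or any 1 of the 5 untreated mice (adjusted p 0.0519 to 0.0683), without the filter (adjusted p = 0.0849) and without the mice of shifted Dbp (adjusted p = 0.114). Between the ASO groups the change was 0.78 (SE 0.41, adjusted p = 0.184), and 1.25 (adjusted p = 0.0154) without control-ASO mouse 3, the highest of its group. Slco1b2, a liver carrier of the same family, passed in 0 of the 5 comparisons by edgeR and in 1, control ASO over P133, by DESeq2 (adjusted p = 0.0409), with an unadjusted edgeR p under 0.05 in the same 1, log2 changes from -0.79 to 0.43 and means of 592, 436, 756 and 647 CPM in Smyd3-ASO, control-ASO, P133 and untreated mice. Its change in control ASO over P133 (log2 -0.79, adjusted p = 0.087) also passed in 1 fit of all groups (adjusted p = 0.0398) and on leaving out control-ASO mouse 1 (adjusted p = 0.0474) or 3 (adjusted p = 0.0148), and control ASO over untreated (log2 -0.57, adjusted p = 0.15) without control-ASO mouse 3 (log2 -0.81, adjusted p = 0.0324).

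Among the 7 genes of export into bile, Abcb11 was lower in all 3 DEN groups than in untreated livers. Abcb11 (chromosome 2, 69238282 to 69342616, minus strand), the bile salt export pump and one of the windows printed above, had 43.3 CPM at the lowest, 73.6 at the median and 110 at the highest under Smyd3-ASO, and 69.5, 95.7 and 119 CPM under control ASO. P133 mice had 137, 121, 100 and 83.8 CPM, and untreated mice 195, 193, 172, 196 and 182 CPM. Untreated mice again lay above all DEN mice. Over untreated, Smyd3-ASO was at log2 -1.33 (SE 0.20, adjusted p = 1.43e-04), control ASO at -0.98 (SE 0.14, adjusted p = 6.67e-05) and P133 at -0.76 (SE 0.15, adjusted p = 0.00129), while Smyd3-ASO over control ASO was at -0.34 (SE 0.20, adjusted p = 0.231).

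Abcc2, Abcg8 and Abcb1a were lower under Smyd3-ASO than under control ASO, calls that did not hold with library totals (adjusted p = 0.0808, 0.0639 and 0.0814). Abcc2, the canalicular exporter of conjugates, was at 85.6 ± 21.3, 131 ± 22.0, 116 ± 11.4 and 169 ± 35.0 CPM (SD) in Smyd3-ASO, control-ASO, P133 and untreated mice. Its log2 change was -0.62 (SE 0.18, adjusted p = 0.0192) in Smyd3-ASO over control ASO, -1.01 (SE 0.20, adjusted p = 9.39e-04) in Smyd3-ASO over untreated and -0.54 (SE 0.16, adjusted p = 0.0208) in P133 over untreated, and the last of these ended without P133 mice 1 or 2 (adjusted p = 0.0717 and 0.0506). Control ASO over untreated did not pass (log2 -0.37, SE 0.16, adjusted p = 0.0788), but was called without control-ASO mouse 3, untreated mouse 5 or the mice of shifted Dbp (adjusted p 0.0168 to 0.0463). Abcb1a, a P-glycoprotein drug exporter, was lower in Smyd3-ASO over control ASO (log2 -0.81, SE 0.24, adjusted p = 0.025), higher in control ASO over untreated (1.23, SE 0.32, adjusted p = 0.00665) and higher in control ASO over P133 (0.95, SE 0.28, adjusted p = 0.02). It had 2.22 to 4.66 CPM under Smyd3-ASO, 3.06 to 7.53 under control ASO, 2.37 to 3.47 at P133 and 0.934 to 3.77 in untreated mice, with only 6 to 120 counts per mouse. The first of these calls ended without Smyd3-ASO mouse 4 or control-ASO mice 4 or 6 (adjusted p 0.0503 to 0.0637), and the last without P133 mice 2 or 3 (adjusted p = 0.0619 and 0.0502) and with voom (adjusted p = 0.0906).

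Abcg5 and Abcg8 encode the paired subunits of the transporter that moves cholesterol into bile, and they lie head to head on chromosome 17. The Abcg8 window (chr17:84682871-84683170, plus strand) is shown because its capitals are the 209 bases that also lie in the Abcg5 window, which is read from the minus strand.
Abcg8: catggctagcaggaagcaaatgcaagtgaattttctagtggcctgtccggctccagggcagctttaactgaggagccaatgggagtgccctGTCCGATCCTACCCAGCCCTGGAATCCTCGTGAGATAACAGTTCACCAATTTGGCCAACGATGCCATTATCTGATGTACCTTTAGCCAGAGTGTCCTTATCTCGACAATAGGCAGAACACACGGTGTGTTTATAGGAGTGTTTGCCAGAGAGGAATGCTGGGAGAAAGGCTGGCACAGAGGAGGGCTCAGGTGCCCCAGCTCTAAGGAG
Abcg8 had 17.9 to 34.4 CPM under Smyd3-ASO and 34.5 to 63.7 CPM under control ASO, with no overlap (log2 -0.63, SE 0.19, adjusted p = 0.0286), and Abcg5 had 18.8 to 40.6 and 24.6 to 43.2 CPM (log2 -0.28, SE 0.19, adjusted p = 0.29). The call of Abcg8 ended without Smyd3-ASO mice 2, 3 or 5 or control-ASO mouse 3 (adjusted p 0.0519 to 0.063). The count of Abcg8 per count of Abcg5 had a median of 0.962 under Smyd3-ASO, 1.24 under control ASO, 0.967 at P133 and 0.918 in untreated mice, and the ranges overlapped. A difference between the changes of the pair was not tested. In the comparisons with untreated mice both genes stayed between -0.31 and 0.33 on the log2 scale, and neither passed by edgeR, DESeq2 or voom or had an unadjusted p under 0.05. The genes overlap on opposite strands from 84676302 to 84683011, and whether the counting used strand is not given in the sources used here. Their 3' ends, which the kit reads, lie outside that stretch, at 84658234 for Abcg5 and 84700333 for Abcg8. The last 300 bases of each shared no window of 50 bases with another gene.

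Abcb4, the phospholipid floppase of the canaliculus, was at 66.7 ± 27.1, 45.0 ± 7.48, 74.7 ± 5.07 and 58.9 ± 15.0 CPM (SD) in Smyd3-ASO, control-ASO, P133 and untreated mice. Control ASO over P133 passed (log2 -0.73, SE 0.13, adjusted p = 0.00119), with no overlap. The change in control ASO over untreated did not (log2 -0.39, SE 0.17, adjusted p = 0.0773), though it did without untreated mouse 5 (log2 -0.50, adjusted p = 0.0151) and without the mice of shifted Dbp (log2 -0.60, adjusted p = 0.0117). Between the ASO groups the change was 0.56 (SE 0.24, adjusted p = 0.104), and it passed without Smyd3-ASO mouse 3 (log2 0.69, adjusted p = 0.0323). Of the 50-base windows at its 3' end, 19.9% are also in Abcb1a or Abcb1b. Atp8b1, the phosphatidylserine flippase of the same membrane, was at 21.8 ± 3.30, 25.8 ± 3.99, 18.3 ± 2.81 and 20.5 ± 1.45 CPM (SD). It was higher in control ASO over P133 (log2 0.50, SE 0.15, adjusted p = 0.0241) and over untreated (0.34, SE 0.13, adjusted p = 0.0396). The first call ended without control-ASO mouse 6 or P133 mice 3 or 4 (adjusted p 0.0503 to 0.0815) and without the mice of shifted Dbp (adjusted p = 0.137). The second ended without control-ASO mice 2, 4, 5 or 6 or untreated mice 1, 2, 3 or 4 (adjusted p 0.0566 to 0.096), with voom (adjusted p = 0.0529), without the filter (adjusted p = 0.0606) and without the mice of shifted Dbp (adjusted p = 0.0892).

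Export back into blood moved in both directions. Abcc4 (chromosome 14, 118482692 to 118706219, minus strand), an exporter of the sinusoidal membrane, was higher in all 3 DEN groups than in untreated livers. Smyd3-ASO mice had 6.07, 7.10, 3.78, 1.46, 2.68 and 8.08 CPM, and control-ASO mice 1.70, 2.47, 2.26, 1.76, 3.43 and 1.94 CPM. P133 mice had 6.31, 5.59, 3.77 and 6.31 CPM, and untreated mice 1.61, 0.355, 0.778, 0.435 and 0.534 CPM, from 3 to 15 counts each. Untreated mice lay below all DEN mice but Smyd3-ASO mouse 4. Over untreated, P133 was 7.10-fold higher (log2 2.83, SE 0.39, adjusted p = 7.82e-05), Smyd3-ASO 6.15-fold higher (log2 2.62, SE 0.51, adjusted p = 0.001) and control ASO 2.93-fold higher (log2 1.55, SE 0.38, adjusted p = 0.00446), and control ASO was lower than P133 (log2 -1.29, SE 0.26, adjusted p = 0.0022). Smyd3-ASO over control ASO was at 1.09 (SE 0.36, adjusted p = 0.0406). It failed to pass with voom (adjusted p = 0.165), with library totals (adjusted p = 0.0513), on leaving out the mice of shifted Dbp (adjusted p = 0.113), and on leaving out any 1 of Smyd3-ASO mice 1, 2 and 6 and control-ASO mice 1, 2, 3, 4 and 6 (adjusted p 0.0611 to 0.0914).

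Slc51b, the beta subunit of the basolateral transporter OST and one of the windows printed above, was lower in all 3 DEN groups. It had 5 to 18 counts under Smyd3-ASO (0.270 to 0.698 CPM), 1 to 13 under control ASO (0.126 to 1.05 CPM), 0 to 6 at P133 (0 to 1.02 CPM) and 8 to 24 in untreated mice (1.24 to 3.20 CPM). Untreated mice lay above all DEN mice. Over untreated the log2 change was -1.72 (SE 0.36, adjusted p = 0.00148) for Smyd3-ASO, -1.49 (SE 0.44, adjusted p = 0.0119) for control ASO and -1.89 (SE 0.62, adjusted p = 0.0302) for P133. The P133 call ended without P133 mice 3 or 4 or untreated mouse 5 (adjusted p 0.0642 to 0.0906). Without the mice of shifted Dbp both the P133 call (log2 -1.25, adjusted p = 0.17) and the control-ASO call (log2 -1.38, adjusted p = 0.0524) ended. Its partner subunit gene Slc51a, named after its values were seen, had 0 counts in all 21 mice. Rasl12, a gene that overlaps Slc51b, had 31 counts over all mice, next to 181 for Slc51b. Abcc3, another sinusoidal exporter, passed in 0 comparisons by edgeR, DESeq2 or voom and had an unadjusted p under 0.05 in 0, with group means of 18.1, 21, 30.2 and 23.8 CPM in Smyd3-ASO, control-ASO, P133 and untreated mice and log2 changes from -0.53 to 0.35. The lowest of these, control ASO over P133, was at -0.77 (adjusted p = 0.0179) without control-ASO mouse 3.

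Of the 4 sensing and feedback genes, both subunits of the FGF15 receptor were lower under Smyd3-ASO than under control ASO. Klb (chromosome 5, 65348314 to 65384007, plus strand), which encodes beta-Klotho, had 1.44, 2.13, 1.19, 1.77, 5.17 and 1.89 CPM under Smyd3-ASO, and 7.62, 6.29, 6.91, 2.94, 9.01 and 5.35 CPM under control ASO. P133 mice had 4.62, 4.57, 7.09 and 3.63 CPM, and untreated mice 9.98, 11.0, 13.1, 13.8 and 7.75 CPM. Smyd3-ASO mouse 5 alone overlapped the control-ASO mice, of which mouse 4 alone lay below it. Klb was lower in Smyd3-ASO over control ASO (log2 -1.49, SE 0.35, adjusted p = 0.00742), in Smyd3-ASO over untreated (-2.31, SE 0.34, adjusted p = 1.09e-04), in P133 over untreated (-1.17, SE 0.24, adjusted p = 0.00186) and in control ASO over untreated (-0.81, SE 0.24, adjusted p = 0.0119).

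Fgfr4, the receptor kinase, had 3.67 CPM at the lowest, 4.64 at the median and 9.97 at the highest under Smyd3-ASO, and 8.55, 10.3 and 12.2 CPM under control ASO. Smyd3-ASO mouse 6 alone reached the control-ASO range. The change was -0.92 on the log2 scale (SE 0.22, adjusted p = 0.00813), and Smyd3-ASO over untreated missed the threshold (-0.72, SE 0.29, adjusted p = 0.0521). The change over untreated passed with DESeq2 (adjusted p = 0.0493), with voom (adjusted p = 0.025), in 1 fit of all groups (adjusted p = 0.0172), without Smyd3-ASO mouse 6 (log2 -0.95, adjusted p = 0.00624) and without untreated mouse 4 (log2 -0.87, adjusted p = 0.0251). Fgfr4 averaged 7.53 CPM at P133 and 8.80 CPM in untreated mice, and control ASO over P133 (log2 0.44, adjusted p = 0.0691) passed without P133 mouse 2 (log2 0.61, adjusted p = 0.0263). Fgf15, the intestinal ligand, named after its values were seen, had 1 count in control-ASO mice and 0 in all other mice.

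Nr1h4 (chromosome 10, 89454234 to 89533585, minus strand) had 22.3 CPM at the lowest, 28.4 at the median and 38.0 at the highest under Smyd3-ASO, and 29.6, 34.6 and 42.0 CPM under control ASO. P133 mice had 43.5, 43.9, 36.6 and 70.5 CPM, and untreated mice 55.6, 85.9, 79.7, 77.8 and 43.8 CPM. Both ASO groups lay below all untreated mice, with log2 changes of -1.21 (SE 0.20, adjusted p = 2.53e-04) for Smyd3-ASO and -0.98 (SE 0.17, adjusted p = 2.89e-04) for control ASO. Between the ASO groups the change was -0.22 (SE 0.15, adjusted p = 0.282). P133 over untreated did not pass (-0.49, SE 0.23, adjusted p = 0.123) and control ASO over P133 did (-0.48, SE 0.17, adjusted p = 0.046). The P133 value over untreated passed without P133 mouse 4 (-0.72, adjusted p = 0.022), without untreated mouse 5 (-0.62, adjusted p = 0.029) and without the mice of shifted Dbp (-0.85, adjusted p = 0.00162). The change in control ASO over P133 was -0.24 (adjusted p = 0.234) without P133 mouse 4 and -0.23 (adjusted p = 0.332) without the mice of shifted Dbp, and the call also ended with voom (adjusted p = 0.0629), in 1 fit of all groups (adjusted p = 0.0773) and without P133 mice 1 or 2 or control-ASO mice 2, 4, 5 or 6 (adjusted p 0.0609 to 0.0821). Nr0b2, the target of FXR that encodes SHP, passed in 0 comparisons by edgeR, DESeq2 or voom and had an unadjusted p under 0.05 in 0, with log2 changes from -0.60 to 0.65. It had 15.8, 5.35, 1.08, 7.82, 32.1 and 6.69 CPM under Smyd3-ASO and 10.1 to 24.0 CPM under control ASO, with 2.52 to 23.1 at P133 and 10.6 to 24.7 in untreated mice. Smyd3-ASO mouse 3 had the lowest level of both Nr0b2 and Cyp7a1. Smyd3-ASO mice 2 and 6 came next for Nr0b2 (5.35 and 6.69 CPM) and had the highest Cyp7a1 of their group (89.5 and 87.6 CPM). P133 mouse 4 had the lowest Nr0b2 (2.52 CPM) and the highest Cyp7a1 (104 CPM) of its group. A relation between Nr0b2 and Cyp7a1 was not tested.

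A second list held 36 other genes of the pathway, of which 30 had counts high enough to test. In Smyd3-ASO over control ASO 7 were higher and 3 lower, led by Fdxr, the mitochondrial reductase that feeds electrons to Cyp27a1 through ferredoxin (log2 -0.73, SE 0.14, adjusted p = 0.0026), the anion exchanger Slc4a2 (-0.61, adjusted p = 0.0031) and the exporter Abcg2 (0.76, adjusted p = 0.00813). Fdx1, which encodes that ferredoxin and was named after its values were seen, was higher there (log2 0.56, SE 0.17, adjusted p = 0.0266). That call ended in 6 of the fits that left out 1 mouse. In control ASO over untreated 4 were higher and 11 lower, led by Nr1h2, which encodes the oxysterol receptor LXR beta (log2 -1.93, adjusted p = 1.92e-06), Hnf4a (-1.01, adjusted p = 1.35e-05) and the peroxisomal enzyme Hsd17b4 (-1.17, adjusted p = 2.14e-05). In Smyd3-ASO over untreated 6 were higher and 11 lower, led by Nr1h2 (-2.44, adjusted p = 3.10e-07), Hnf4a (-1.31, adjusted p = 6.63e-05) and Slc4a2 (-0.93, adjusted p = 1.96e-04). In P133 over untreated 5 were higher and 6 lower, led by Nr1h2 (-1.87, adjusted p = 8.03e-05), Hnf4a (-0.69, adjusted p = 0.00112) and Mafg, a small Maf protein that represses bile acid enzymes (0.57, adjusted p = 0.00333). In control ASO over P133 3 were higher and 10 lower, led by Nr1i2, which encodes the receptor PXR (-1.05, adjusted p = 7.07e-05), Cyp4v3 (-1.19, adjusted p = 2.49e-04) and Cyp3a11, a target of PXR (-1.49, adjusted p = 6.16e-04). The medians of the 30 genes in these comparisons were 0.00291, -0.21, -0.26, -0.17 and -0.14 on the log2 scale. Over all genes tested the medians were 0.01, 0.06, 0.06, 0.00184 and 0.03 in the same order. Called in either direction were 26.1, 45.9, 47.6, 31.6 and 27% of all genes tested, in that order.

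Markers of cell types also differed between groups. Hepatocyte markers were present in every mouse, with a summed level over 7 genes, Hnf4a among them, of 19806 to 37187 CPM under Smyd3-ASO, 49671 to 69818 under control ASO, 40579 to 43290 at P133 and 51161 to 103840 in untreated mice. Alb, named after its values were seen, made up most of that sum, with means of 20104, 46165, 28061 and 59915 CPM in the same order. Hnf4a averaged 86.2, 104, 130 and 210 CPM and did not pass in Smyd3-ASO over control ASO (log2 -0.28, adjusted p = 0.21). Of these 7, 0 were higher and 4 lower in Smyd3-ASO over control ASO, 0 higher and 3 lower in control ASO over untreated, 0 higher and 5 lower in Smyd3-ASO over untreated, 0 higher and 4 lower in P133 over untreated and 1 higher and 1 lower in control ASO over P133. The sum of 10 bile duct markers was 59.9 to 97.3 CPM under Smyd3-ASO, 139 to 272 under control ASO, 52.7 to 87.5 at P133 and 40.3 to 56.6 in untreated mice. Of the 7 tested, 1 was higher and 3 lower in Smyd3-ASO over control ASO, 5 and 0 in control ASO over untreated, 3 and 1 in Smyd3-ASO over untreated, 1 and 1 in P133 over untreated and 3 and 0 in control ASO over P133. Their 2 defining keratins, named after their values were seen, averaged 0.464, 0.116, 0.148 and 0.573 CPM for Krt7 and 0.293, 0.106, 0.314 and 0.796 CPM for Krt19 in Smyd3-ASO, control-ASO, P133 and untreated mice. Tspan8, a tetraspanin of this list named after its values were seen, averaged 6.30, 63.7, 0.60 and 0.127 CPM in the same order, and the control-ASO mice, at 37.2 to 107 CPM, lay above all others. In Smyd3-ASO over control ASO 1 macrophage marker of 8 was higher and 0 lower, 0 of 7 sinusoidal endothelium markers were higher and 4 lower, 0 of 7 stellate and fibroblast markers were higher and 1 lower, and 1 of 4 neutrophil markers was higher and 0 lower. In control ASO over untreated these counts were 0 higher and 4 lower, 2 and 3, 1 and 2, and 0 and 0. The 7 lymphocyte markers failed the filter on low counts, with sums of 0.134 to 4.80 CPM. The part of cell composition in the changes of bile acid genes was not tested. Of 15 female-biased liver genes tested, 0 were higher and 13 lower in Smyd3-ASO over control ASO, 8 were higher and 0 lower in control ASO over untreated, and 2 were higher and 2 lower in Smyd3-ASO over untreated. In P133 over untreated 0 of them passed in either direction, and in control ASO over P133 11 were higher and 0 lower. The sum of the 19 listed was 459 to 1391 CPM under control ASO. It was 32.1 to 83.7 CPM under Smyd3-ASO, 24.1 to 38.6 at P133 and 16.2 to 81.5 in untreated mice. Some may thus have passed the filter through the control-ASO mice. Their calls with that group give no separate support for a rise there. Of 17 male-biased genes tested, 4 were higher and 0 lower in Smyd3-ASO over control ASO, 0 were higher and 11 lower in control ASO over untreated, 0 and 9 in Smyd3-ASO over untreated, 0 and 5 in P133 over untreated, and 0 and 12 in control ASO over P133. Beside the counts of all these lists, 26.1% of all genes tested were called in Smyd3-ASO over control ASO and 45.9% in control ASO over untreated. The share was 47.6% in Smyd3-ASO over untreated, 31.6% in P133 over untreated and 27% in control ASO over P133. The part of sex-biased expression in the changes of bile acid genes was not tested.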

How the data were processed

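Livers of 21 mice were read as 35 libraries made with a 3' end RNA kit (QuantSeq), and the deposited table holds counts per Ensembl gene for each mouse, in which the authors had merged repeat libraries of the ASO mice, 2 per control-ASO mouse and 1 to 3 per Smyd3-ASO mouse. Reads were aligned with HISAT2 2.1.0 to mm10 per the submitters' processing notes, which also name DESeq with no version; the counting program and its strand setting are not given in the sources used here. The deposited normalized table was not used, and 0 columns were left unmapped.

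Tests used edgeR 4.0.16 in R 4.3.3 (TMM, robust quasi-likelihood fits, 2-sided, only the groups compared, genes kept by filterByExpr over the 4 groups), with Benjamini-Hochberg adjustment over all 15297 genes and a threshold of 0.05. Every adjusted p printed is from this test unless a setting is named, and SE is that of the log2 change. Levels are CPM scaled over all 21 mice. The steps were tested on simulated data. DESeq2 1.42.0, limma 3.58.1 (voom) and the other alternatives of the closing section were also run. The labels call the samples of a group biological replicates, and no 2 mice of a group had counts alike within sampling noise.

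The 34 genes and all other lists were chosen with earlier results of these data known. All 34 are described; of the list of other pathway genes the 3 with the smallest adjusted p in each comparison are named. Counts stand for reads, not for separate molecules, and low counts limit Slc51b, Abcc4, Cyp46a1, Abcb1a, Cyp39a1 and Klb most.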

Additional observations from a re-analysis of the deposited data

Results flagged for a closer look

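In 6 of 136 pairs of gene and group, 1 mouse stood far from the others of its group by Dixon's criterion, and chance flags about 1 in 20 such pairs. Among untreated mice, mouse 4 had 38.8 CPM of Cyp46a1, against 0.71 to 8.81 CPM in the others, and mouse 2 had 715 CPM of Cyp8b1, against 148 to 286 CPM. Untreated mouse 5, which also had the lowest Dbp of its group, stood apart for a pair of genes, with 223 CPM of Hsd3b7, against 299 to 320 CPM in the others, and 3.20 CPM of Slc51b, against 1.24 to 1.54 CPM. Control-ASO mouse 3 had 63.7 CPM of Abcg8, against 34.5 to 39.5 CPM in the others. Smyd3-ASO mouse 5 had 5.17 CPM of Klb, against 1.19 to 2.13 CPM in the others.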

How the results depend on the processing

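Library totals moved most. Lower genes then numbered 3 in Smyd3-ASO over control ASO, higher and lower genes 11 and 5 in control ASO over untreated, 13 and 8 in Smyd3-ASO over untreated and 9 and 2 in P133 over untreated, and higher genes 7 in control ASO over P133. That scaling turned 18 log2 changes round, where the median gene itself shifted. In control ASO over untreated these were Cyp2c70 at 0.0705, Amacr at 0.12, Scp2 at 0.29, Baat at 0.34, Abcb4 at 0.46, Abcc2 at 0.49 and Klb at 0.0398. In Smyd3-ASO over untreated they were Cyp27a1 at 0.75, Amacr at 0.23, Scp2 at 0.70, Slc27a5 at 0.52, Slco1b2 at 0.78, Slco2b1 at 0.31, Abcg5 at 0.66 and Abcg8 at 0.60. In P133 over untreated they were Amacr at 0.45, Abcc2 at 0.0595 and Atp8b1 at 0.43. Other counts moved by over 1.5 times in few settings, and the cause was not tested. DESeq2 gave 5 higher genes in Smyd3-ASO over control ASO. In control ASO over P133 voom gave 2 higher genes, as did leaving out the mice of shifted Dbp, an alternative chosen after seeing the data, and 1 fit of all 4 groups gave 1 higher gene in P133 over untreated. RLE size factors and no filter moved 0 counts by over 1.5 times.

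Leaving out 1 mouse at a time gave 1 to 4 higher and 5 to 7 lower genes in Smyd3-ASO over control ASO, 3 to 4 and 16 to 21 in control ASO over untreated, 2 to 3 and 14 to 16 in Smyd3-ASO over untreated, 2 to 2 and 7 to 11 in P133 over untreated and 1 to 4 and 9 to 15 in control ASO over P133. No direction of a called gene turned round in these refits. The replicate numbers did not pair the mice, with same-number correlations of -0.141 to 0.129 over the 5 comparisons and at most 1 mouse per comparison correlating best with its own number. With the replicate number as a block, 1 gene was higher in control ASO over P133, and the other 9 counts stayed within 1.5 times.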

Other observations

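Slc10a2, the bile acid carrier of ileum and bile duct that is also expressed in mouse gallbladder, was chosen after its values were seen. It was at 16.8 to 48.1 CPM under Smyd3-ASO, 20.4 to 41.7 under control ASO, 6.42 to 16.0 at P133 and 3.19 to 16.8 in untreated mice. Control ASO was higher than untreated (log2 2.19, SE 0.47, adjusted p = 0.00302) and P133 (log2 1.24, SE 0.24, adjusted p = 0.00254), with no overlap of the mice in either. Smyd3-ASO was higher than untreated (log2 2.06, SE 0.50, adjusted p = 0.00529), where Smyd3-ASO and untreated mice overlapped. It is one of 6 markers of small intestine and gallbladder, of which 2 passed the filter on low counts. The other tested one, Vil1, which encodes the brush border protein villin and was also named after its values were seen, was at 0.0776 to 0.436 CPM under Smyd3-ASO, 0.672 to 4.29 under control ASO, 0 to 0.222 at P133 and 0 in untreated mice. It was higher in control ASO over untreated (adjusted p = 0.00141), Smyd3-ASO over untreated (adjusted p = 0.034) and control ASO over P133 (adjusted p = 0.00412), and lower in Smyd3-ASO over control ASO (log2 -3.39, SE 0.61, adjusted p = 0.00141). Vil1 had only 20, 139, 1 and 0 summed counts in Smyd3-ASO, control-ASO, P133 and untreated mice. It thus passed the filter through the control-ASO mice, and its calls with that group give no separate support for a rise there. The untested ones had few counts in any group. Summed over Smyd3-ASO, control-ASO, P133 and untreated mice, Fabp6 had 2, 0, 0 and 0 counts, Fgf15 0, 1, 0 and 0, Gkn3 1, 1, 0 and 1, and Muc2 4, 2, 0 and 5.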
